A study of Mus musculus with 19 samples.

Results

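The Cd300 receptors are a family of immunoglobulin-like proteins on the surface of myeloid cells. Their transcripts were followed here in suppressive myeloid cells of newborn and adult mouse spleen. The members were the 6 genes of the deposited table whose symbol is Cd300a, Cd300e, Cd300lb, Cd300ld, Cd300lf or Cd300lg, of 38887 genes in all. The 6 were picked because of their levels in these 4 groups, so their values are given as a description. No p-value is given for a member, and the range of each value over 29 other ways of processing the data stands beside it where it is wide. All 6 passed the expression filter that left 12943 genes, as did 3 of the 6 other Cd300 genes in the table.

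Cd300 receptors work as opposed pairs. The inhibitory members, Cd300a and Cd300lf, carry tyrosine motifs in a long cytoplasmic tail and recruit the phosphatases Ptpn6 (SHP-1), Ptpn11 (SHP-2) and, for some, Inpp5d (SHIP-1). The activating members, Cd300lb, Cd300ld and Cd300e, have short tails and signal through adaptor proteins with activating motifs, such as Tyrobp (DAP12) and Fcer1g, which engage the kinase Syk. Several members bind lipids that dying cells expose, such as phosphatidylserine, or ceramide. Cd300ld is known as a receptor of S100A8 and S100A9 that is needed for the function of neutrophil-like suppressor cells in tumours. Cd300lg (nepmucin) is best known from endothelial cells, where it binds L-selectin.

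Myeloid-derived suppressor cells (MDSC) restrain T cell responses and come in a neutrophil-like form (PMN-MDSC) and a monocyte-like form (M-MDSC). Spleens of newborn mice, 7 days old, and of adult mice, 6 to 8 weeks old, were used, and the study asked how the cells of newborns differ. No strain, tumour or treatment is given for any group. Per the labels' protocols, cells were enriched with beads against CD11b, and PMN-MDSC were also isolated with beads against Ly6G. Sorting took CD11b+ cells with intermediate Ly6C and with Ly6G as PMN-MDSC, and CD11b+ cells with high Ly6C and without Ly6G as M-MDSC. The labels do not say which PMN-MDSC libraries came from the Ly6G beads and which from the sort. PMN-MDSC gave 6 adult and 5 newborn libraries, M-MDSC gave 3 adult and 5 newborn ones, and both labelled batches are present in every group. Nothing in the labels says that replicates came from separate animals, so errors and p-values cover only how far these libraries scatter, and that scatter may be technical.

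Batch 1 (10 libraries) was shallow, with totals of 827744 to 2965896 counts, and batch 2 (9 libraries) deep, with 14026193 to 45135933. Levels are given in CPM, that is counts scaled to library size, here after edgeR's trimmed-mean (TMM) scaling. A count of 0 in 1 library allows up to 3 counts, or 0.99 to 3.29 CPM in batch 1 and 0.0601 to 0.197 CPM in batch 2, for counting error only. Some PMN-MDSC libraries of the shallow batch appeared to have a near twin in the deep one. In adults these were replicate 1 with 32, replicate 2 with 33 and replicate 3 with 34. In newborns replicate 2 was matched with 37 and replicate 3 with 38. Once group and batch means were removed, the adult twins correlated across genes at 0.652 to 0.741. The other adult cross-batch pairs gave -0.565 to -0.219. The newborn twins gave 0.446 and 0.502. With 2 newborn libraries in batch 1, their deviations are exact opposites, so a library that follows 1 must oppose the other. The newborn values alone therefore cannot establish a twin. A fit without the batch 1 PMN-MDSC libraries was therefore made as well. The labelled cell types were checked with markers. The summed classical monocyte markers ranged over 17760 to 25540 CPM in adult M-MDSC, 18910 to 28150 CPM in newborn M-MDSC and 2389 to 3174 CPM in adult PMN-MDSC, and newborn PMN-MDSC reached 15240 to 20230 CPM. The sum did not stand for most of the list. Between newborn and adult PMN-MDSC, 4 of the 12 classical monocyte markers were called higher and 6 lower, with a median log2 fold change of -0.84. Ccr2, the chemokine receptor of classical monocytes, averaged 552 ± 219 CPM (SD, n = 3) in adult and 612 ± 277 CPM (SD, n = 5) in newborn M-MDSC and at most 22.7 CPM in any PMN-MDSC library. Ly6g averaged 213 ± 25.1 CPM (SD, n = 5) in newborn but 19.6 ± 4.46 CPM (SD, n = 6) in adult PMN-MDSC, and at most 1.85 CPM in M-MDSC. For neutrophil markers the sum was 10460 to 11150 CPM in adult PMN-MDSC, with 101800 to 114200 CPM in the newborn ones. Markers of other cell types moved with age as well. B cell markers were lower in newborns, with sums of 2832 to 4554 CPM (adult PMN-MDSC), 348.5 to 550.5 CPM (newborn PMN-MDSC), 601 to 1545 CPM (adult M-MDSC) and 71.8 to 154 CPM (newborn M-MDSC). The summed dendritic cell markers were at 1343 to 1603 CPM in adult and 108.3 to 184.2 CPM in newborn PMN-MDSC, and at 641.7 to 897 CPM and 32.17 to 159.3 CPM in M-MDSC. Of these 12 dendritic cell markers, 4 were called lower and 0 higher with newborn age in each cell type. That is 33.3%, against 47.7% of all genes in PMN-MDSC and 30.2% in M-MDSC. Eosinophil markers (64.71 to 124.7 CPM in adults, 332.4 to 882.4 CPM in newborns) and erythroid markers (92.08 to 356.9 CPM and 2629 to 4558 CPM) were higher in newborn PMN-MDSC. Macrophage markers differed between the cell types. They summed to 2286 to 4794 CPM in adult and 2452 to 3025 CPM in newborn PMN-MDSC. In M-MDSC the sums were 812.8 to 1072 CPM in adults and 537.5 to 604.1 CPM in newborns. Of these 12 markers, 10 in adults and 11 in newborns were called lower in M-MDSC and 0 higher. Their part in the levels of the members was not tested. Kdm5d, a Y-linked gene, had 0 counts in every adult library and counts in every newborn library, so the mix of sexes and age cannot be told apart. In such bulk samples, fewer cells of a type and less RNA per cell cannot be told apart.

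Of the 12 Cd300 genes in the table, 11 lie side by side on mouse chromosome 11 within 244 kb (GRCm38, 114890041 to 115133992), and Cd300lg stands apart on the same chromosome from 102041509 to 102055620 (plus strand, ENSMUSG00000017309). Within the cluster Cd300a (ENSMUSG00000034652) takes 114890041 to 114904654 on the plus strand. On the minus strand lie Cd300lb (ENSMUSG00000063193, 114922781 to 114934386), Cd300ld (ENSMUSG00000034641, 114982274 to 114989922), Cd300e (ENSMUSG00000048498, 115051917 to 115062177) and Cd300lf (ENSMUSG00000047798, 115116214 to 115133992). All 6 are protein-coding in GENCODE M21. Cd300lf lies inside the gene Rab37, which runs on the opposite strand from 115091431 to 115162236, and the 2 share 0 exonic bases. In transcript sequence the members are distinct: Cd300lb and Cd300e share 0% of their 50-base words with another gene, and the highest share among members is the 3.89% of Cd300ld. Among the relatives between Cd300ld and Cd300e, Cd300lh, Gm11710 and Gm11711 are near copies of each other, with 82.1%, 93.8% and 100% of their words found in another gene, so reads of 50 bases cannot divide them.

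**Figure D1:**
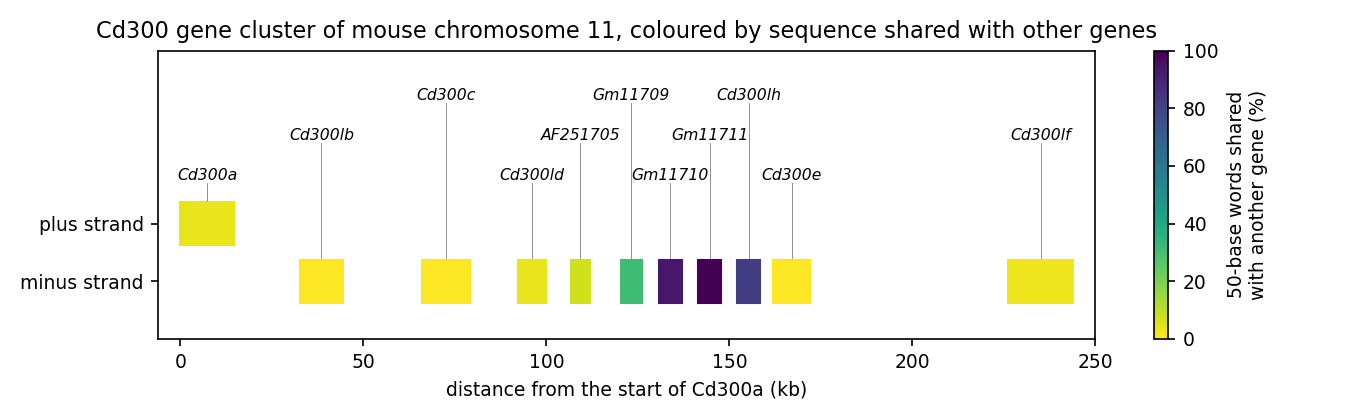
The 11 clustered Cd300 genes, drawn to scale by distance from the start of Cd300a in kb (x axis) and by strand (y axis), coloured by the percent of 50-base transcript words shared with another gene. The members are pale, at most 3.89%, while Gm11710, Gm11711 and Cd300lh are dark, at 93.8%, 100% and 82.1%.

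The bases just before the transcription starts of the 5 clustered members are shown because these neighbours, from 1 stretch of DNA, had different patterns over the 4 groups. They come from RefSeq's promoter table (GRCm38.p6), which held 10 of the 12 family genes and not Cd300lg. Each is written 5′ to 3′ along the gene's strand and stops before the first base of the gene in RefSeq or GENCODE, whichever comes first. Capitals mark matches on either strand to GAGGAA (the core of PU.1 sites, read as TTCCTC on the other strand), TTGCNNAA (C/EBP) or TTCNNNGAA (STAT), and the IRF pattern, a pair of GAAA runs 2 bases apart, was searched as well.
Cd300lf (chr11:115133993-115134242, minus strand): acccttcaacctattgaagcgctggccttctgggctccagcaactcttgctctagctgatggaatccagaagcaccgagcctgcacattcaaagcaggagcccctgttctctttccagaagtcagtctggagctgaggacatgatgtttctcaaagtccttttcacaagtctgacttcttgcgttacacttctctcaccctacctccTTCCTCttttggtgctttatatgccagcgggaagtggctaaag
Cd300a (chr11:114889791-114890040, plus strand): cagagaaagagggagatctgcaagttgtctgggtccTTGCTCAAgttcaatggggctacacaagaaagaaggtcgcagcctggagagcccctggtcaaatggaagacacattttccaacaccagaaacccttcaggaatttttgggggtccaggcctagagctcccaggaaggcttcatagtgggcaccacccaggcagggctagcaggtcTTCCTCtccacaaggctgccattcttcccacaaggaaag
Cd300lb (chr11:114934387-114934621, minus strand): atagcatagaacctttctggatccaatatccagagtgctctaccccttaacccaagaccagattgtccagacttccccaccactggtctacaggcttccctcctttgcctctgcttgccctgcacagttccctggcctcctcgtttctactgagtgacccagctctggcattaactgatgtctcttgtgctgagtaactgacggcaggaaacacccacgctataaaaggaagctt
Cd300ld (chr11:114989923-114990136, minus strand): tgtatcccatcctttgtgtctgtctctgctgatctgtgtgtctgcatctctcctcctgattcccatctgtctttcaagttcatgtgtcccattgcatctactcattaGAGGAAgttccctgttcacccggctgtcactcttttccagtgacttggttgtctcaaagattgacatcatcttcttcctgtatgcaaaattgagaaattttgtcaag
Cd300e (chr11:115062178-115062289, minus strand): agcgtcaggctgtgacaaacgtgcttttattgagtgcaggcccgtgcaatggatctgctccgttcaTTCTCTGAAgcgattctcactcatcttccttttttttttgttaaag
Positions are counted from the first base of the match, as printed, to the end of the stretch shown. GAGGAA was found before Cd300lf (43 bases from the end, minus strand), Cd300a (39 bases, minus strand) and Cd300ld (107 bases). Cd300a also held TTGCTCAA 214 bases from the end, Cd300e held TTCTCTGAA 46 bases from the end, and Cd300lb held none of the 4 patterns. No match overlapped another. Among 32851 RefSeq promoters the 250-base window held GAGGAA in 23.3%, TTGCNNAA in 9.56%, the IRF pattern in 2.98% and TTCNNNGAA in 7.02%. A match of letters is a description of the sequence and does not show a bound site. The full 250-base RefSeq windows of Gm11710 and Gm11711 were identical (100%) and that of Cd300lh matched them at 94.8%, against 62.5% for Cd300ld and Cd300lh. Unlike the stretches printed, each of these windows includes some bases of the gene as GENCODE draws it.

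Cd300lf, the inhibitory receptor that binds ceramide and phosphatidylserine and serves as the entry receptor of murine norovirus, was the most abundant member in PMN-MDSC of both ages. Adult PMN-MDSC had 354 CPM in the lowest library, 542 at the median and 568.4 in the highest. Newborn PMN-MDSC had 758, 728, 765, 742 and 610 CPM, every library above every adult one. The model's log2 fold change, newborn over adult with batch as a term, was 0.57 ± 0.22 (SE). Adult M-MDSC had 122, 36.1 and 62.5 CPM and newborn M-MDSC 132, 139, 113, 136 and 102 CPM. Adult replicate 1 lay inside the newborn range, so the groups overlapped, with a log2 fold change of 0.78 ± 0.27 (SE). M-MDSC were lower than PMN-MDSC without overlap at both ages, by -2.77 ± 0.30 (SE) in adults and -2.56 ± 0.24 (SE) in newborns on the log2 scale. The 2 adult PMN-MDSC libraries with the lowest Cd300lf, replicates 3 and 34 at 376 and 354 CPM, are 1 of the resembling pairs.

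Both age differences of Cd300lf varied in size with the processing. The call was lost in 13 of the 29 alternatives in PMN-MDSC and in 16 of 29 in M-MDSC. In PMN-MDSC the log2 fold change ran from 0.33 to 0.65 over the 29 alternatives, with 0.33 for upper-quartile scaling, 0.39 for DESeq2 size factors and 0.59 without the batch 1 PMN-MDSC libraries. In M-MDSC it was 1.30 without adult M-MDSC replicate 1 and 0.47 without replicate 3. Beside these values, 9 of 12 neutrophil markers were called higher and 0 lower in newborn than in adult M-MDSC, with a summed 3187 to 14600 CPM in newborns and 669 to 1163 CPM in adults and none of the 12 at 0 in either group. Their part in the Cd300lf levels of M-MDSC was not tested. Rab37, the small GTPase gene that Cd300lf lies within, had log2 fold changes of 2.45 ± 0.29 (SE) and 1.23 ± 0.42 (SE) for age in PMN-MDSC and M-MDSC, and -2.24 ± 0.42 and -3.45 ± 0.34 for M-MDSC over PMN-MDSC in adults and newborns. These have the signs of Cd300lf. No source says that counting used strand, and the part of Rab37 reads in the Cd300lf counts was not tested.

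Cd300a, the other inhibitory receptor, recognises phosphatidylserine and phosphatidylethanolamine on dying cells. It was the most abundant member per kb in M-MDSC, and it was lower in newborns in both cell types. Adult PMN-MDSC ran from 210.5 through a median of 267 to 301 CPM. Newborn PMN-MDSC had 170, 189, 193, 209 and 170 CPM, all below the lowest adult library, with a log2 fold change of -0.48 ± 0.17 (SE). Adult M-MDSC had 396.5, 398 and 649 CPM and newborn M-MDSC 329, 346, 252, 187 and 251 CPM, again without overlap, at -0.82 ± 0.20 (SE). M-MDSC exceeded PMN-MDSC by 0.89 ± 0.19 (SE) in adults and by 0.55 ± 0.18 (SE) in newborns on the log2 scale, where newborn M-MDSC replicate 77 fell within the PMN-MDSC range. Adult M-MDSC replicate 28, the 1 library of batch 2 in its group, set the size of 2 of these: without it the age difference in M-MDSC was -0.50 and the cell type difference in adults 0.55. Within batch 1 the age difference in M-MDSC was -0.37 and within batch 2 it was -1.50. The age difference in PMN-MDSC ran from -0.72 to -0.39 over the 29 alternatives, and its call was lost in 9 of them. The cell type difference in newborns ran from 0.10, in batch 2 alone, to 0.79, and its call was also lost in 9.

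Cd300lb, an activating receptor that pairs with Tyrobp and takes part in responses to lipopolysaccharide, was higher in newborn than in adult PMN-MDSC, while its M-MDSC libraries overlapped between the ages. Adult PMN-MDSC were tightly spaced, from 113 through 121 to 131 CPM. Newborn PMN-MDSC had 175, 199, 205, 204 and 157 CPM, all higher, with a log2 fold change of 0.61 ± 0.14 (SE). Adult M-MDSC had 61.4, 89.2 and 129 CPM around the newborn values of 68.7, 72.5, 79.7, 71.8 and 78.5 CPM. The newborn libraries lay within the adult range, at -0.33 ± 0.17 (SE). The age difference in M-MDSC minus that in PMN-MDSC was -0.94 ± 0.22 (SE), and -0.68 in batch 1 alone. In newborns M-MDSC were lower than PMN-MDSC without overlap, at -1.31 ± 0.15 (SE). In adults the difference was -0.37 ± 0.16 (SE) with overlapping libraries, and -0.67 without adult M-MDSC replicate 28. The age difference in M-MDSC was -0.04 without adult M-MDSC replicate 28, -0.56 without replicate 1, -0.04 in batch 1 alone and -0.72 in batch 2 alone.

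Cd300ld, the activating S100A8 and S100A9 receptor, was lower in newborns and lower in M-MDSC, in 4 comparisons without overlap. Adult PMN-MDSC ran from 142 through 232 to 242 CPM. Newborn PMN-MDSC had 114, 83.5, 97.7, 86.1 and 56.95 CPM, a log2 fold change of -1.23 ± 0.26 (SE). Adult M-MDSC had 22.5, 38.2 and 55.05 CPM, below every PMN-MDSC library of either age. Newborn M-MDSC had 14.9, 5.13, 9.73, 6.10 and 8.82 CPM, and the age difference there was -2.18 ± 0.33 (SE). The cell type difference was -2.38 ± 0.34 (SE) in adults and -3.33 ± 0.31 (SE) in newborns. The difference between the age effects was -0.94 ± 0.41 (SE), and -1.23 without adult M-MDSC replicate 1. As with Cd300lf, adult PMN-MDSC replicates 3 and 34 lay apart from the others, at 145 and 142 CPM against 231 to 242 CPM.

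Cd300e, an activating receptor that marks nonclassical monocytes, was the least abundant clustered member in each group and also lower in newborns. Adult PMN-MDSC ran from 15.4 through 21.8 to 35.3 CPM. Newborn PMN-MDSC had 5.47, 6.92, 6.03, 10.4 and 5.16 CPM, below all adult libraries, at -1.92 ± 0.64 (SE). Adult M-MDSC had 1.10, 9.55 and 19.1 CPM, a spread that covers all newborn PMN-MDSC values. Newborn M-MDSC had 0.464, 0, 0.927, 0 and 1.57 CPM, which are 1, 0, 2, 0 and 39 counts. The age difference in M-MDSC was -3.93 ± 0.85 (SE), with adult replicate 1 (2 counts) inside the newborn range, and the cell type difference in newborns was -3.31 ± 0.80 (SE). Both rest in part on newborn M-MDSC replicate 79, and were -5.84 and -5.22 without it, and the difference of the age effects was -3.96 without it against -2.01 ± 1.03 (SE) with it. In PMN-MDSC the age difference was -1.70 without the batch 1 PMN-MDSC libraries. Nonclassical monocyte markers moved beside Cd300e. Of 11 tested, 1 was higher and 8 lower in newborn M-MDSC, with a summed 1938 to 2852 CPM against 3371 to 5806 CPM in adults, and only Fabp4, at 0 in newborns, had no counts. In PMN-MDSC 4 were higher and 5 lower, and the sum went the other way, with 3152 to 3994 CPM in newborns and 1407 to 1790 CPM in adults. Their part in the Cd300e values was not tested.

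Cd300lg, the member known from endothelium, separated the cell types by the widest margin among the members and, unlike Cd300lf and Cd300ld, with the higher level in M-MDSC. Adult M-MDSC had 101.5, 62.7 and 102 CPM and newborn M-MDSC 70.6, 84.0, 82.5, 94.8 and 76.8 CPM. Adult PMN-MDSC ran from 0.600 through 1.56 to 2.56 CPM and newborn PMN-MDSC had 1.64, 3.89, 5.03, 3.17 and 3.36 CPM. No PMN-MDSC library came near an M-MDSC one, and the log2 fold changes of M-MDSC over PMN-MDSC were 5.84 ± 0.28 (SE) in adults and 4.61 ± 0.27 (SE) in newborns. With age it was 1.10 ± 0.26 (SE) in PMN-MDSC, where the lowest newborn library overlapped the adults, and -0.13 ± 0.25 (SE) in M-MDSC. The difference between those was -1.23 ± 0.36 (SE). Over the 29 alternatives it ran from -1.45 to -1.05, and its call was lost in 6 of them. Of 12 endothelial markers 2 passed the expression filter. Pecam1, which myeloid cells also express, was lower in M-MDSC at both ages (-1.09 in adults and -0.46 in newborns), and Vwf was lower in newborn M-MDSC (-0.87). The other 10 summed to 2.45 CPM in adult and 5.51 CPM in newborn M-MDSC and to 4.97 and 5.12 CPM in adult and newborn PMN-MDSC. In adult M-MDSC, where Cd300lg averaged 88.9 CPM, Cdh5, Cldn5, Egfl7, Emcn, Plvap, Robo4 and Tek had no counts. In newborn M-MDSC, where Cd300lg averaged 81.7 CPM, only Emcn, Esam and Tek had none. The 10 endothelial markers below the filter held 17 counts in adult and 306 in newborn M-MDSC. The part of endothelial cells in the Cd300lg levels was not tested.

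**Figure D2:**
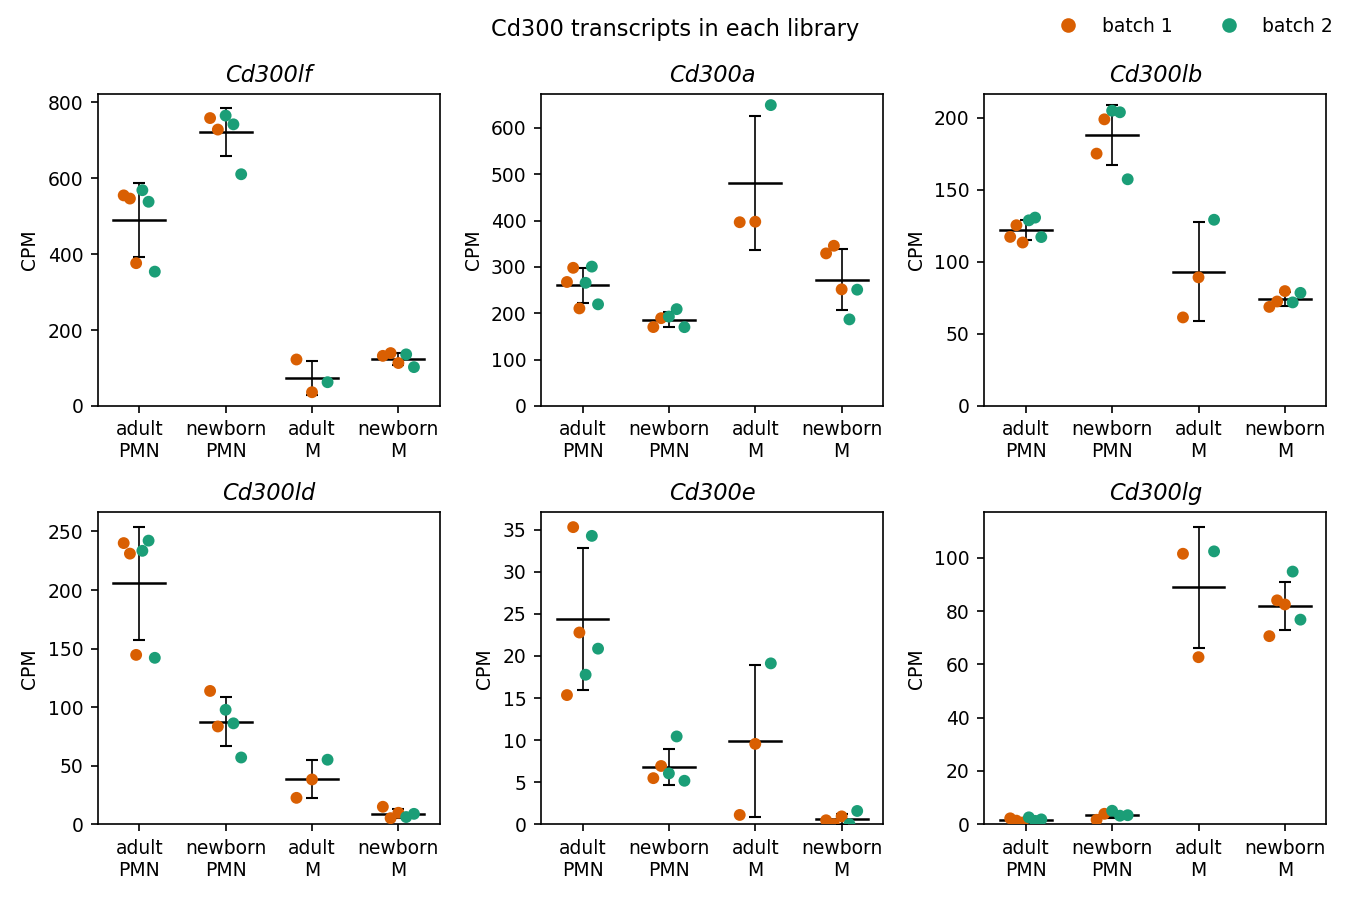
CPM (y axes, starting at 0) of the 6 members in each library of the 4 groups (x axes); points are libraries coloured by batch, horizontal lines the group means and bars ± 1 SD. The means of Cd300ld and Cd300e are lower in newborns in both cell types, Cd300lb is higher in newborn PMN-MDSC only, and Cd300lg is at 5.03 CPM or less in every PMN-MDSC library and at 62.7 CPM or more in every M-MDSC library.

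Counted over the members, 3 were called higher and 3 lower in newborn PMN-MDSC, where 47.7% of all genes tested were called (27.1% higher, 20.5% lower). In newborn M-MDSC 1 was higher and 3 lower, against 30.2% of all genes (15.9% higher, 14.3% lower). For M-MDSC over PMN-MDSC in adults 2 were higher and 2 lower, against 29.1% (16.7% higher, 12.5% lower). In newborns 2 were higher and 4 lower, against 42% (18.7% higher, 23.4% lower). The age effects differed between cell types for 2 members, both lower in M-MDSC, against 18.1% of all genes (6.61% higher, 11.5% lower). Groups did not overlap for 5 members with age in PMN-MDSC, 2 higher and 3 lower, against 51.4% of all genes (28.4% higher, 23% lower). With age in M-MDSC 2 did not overlap, both lower, against 23.1% (12.8% higher, 10.4% lower). Between cell types 2 were higher and 2 lower without overlap in adults, against 29.7% (14% higher, 15.7% lower), and 1 higher and 4 lower in newborns, against 38.4% (16% higher, 22.5% lower). The members were chosen from these values, so nothing is read from these counts. Their median log2 fold changes were 0.04, -0.58, -0.83 and -1.93 in the same order of comparisons, against -0.05, 0.01, -0.13 and -0.13 over all genes. With age in PMN-MDSC 3 members were called without the batch 1 PMN-MDSC libraries, and 3 without adult replicate 2. In M-MDSC 2 were called without adult replicate 28. For age in PMN-MDSC, upper-quartile scaling shifted the median of all genes by -0.24 and DESeq2 size factors by -0.17, and the split of 3514 genes higher and 2657 lower became 2756 and 3552, and 2982 and 3304. The DESeq2 Wald test gave 3168 and 3680. For age in M-MDSC the split of 2054 and 1856 became 1797 and 2138 with DESeq2 size factors. For the cell types in adults the split of 2158 and 1614 became 2205 and 2582 with the DESeq2 Wald test. In newborns the split of 2414 and 3023 became 2934 and 2528 with upper-quartile scaling. For the difference of the age effects the split of 856 and 1488 became 1157 and 1134 with upper-quartile scaling and 1441 and 1638 with the DESeq2 Wald test.

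**Figure D3:**
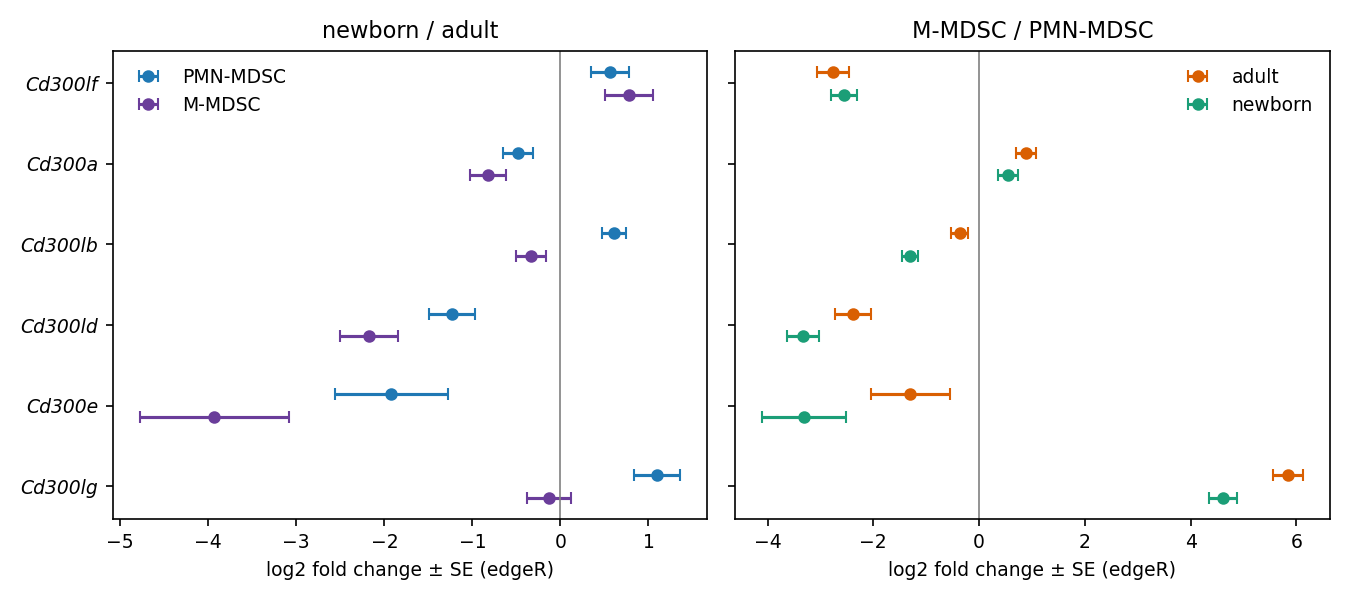
Log2 fold change with its SE (x axes) of each member (y axis), by edgeR with batch as a term: newborn over adult on the left, M-MDSC over PMN-MDSC on the right. The SE bars of the 2 cell types lie on opposite sides of 0 for Cd300lb, at 0.61 and -0.33, and the Cd300lg values of 5.84 and 4.61 lie far from those of the other members.

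Per kb of exonic sequence, the order of members differed between the groups. The length used was the union of all annotated exonic bases, which may differ from that of the transcripts expressed. It was 4.738 kb for Cd300a, 5.149 kb for Cd300lf and 2.088 to 2.917 kb for Cd300lb, Cd300ld and Cd300e. Orders, shares and ratios between genes depend on these lengths. In adult PMN-MDSC it was Cd300lf (95.1 ± 18.9 CPM per kb, SD, n = 6), Cd300ld (77.7 ± 18.3), Cd300a (54.9 ± 8.07), Cd300lb (41.9 ± 2.44), Cd300e (11.7 ± 4.05) and Cd300lg (0.591 ± 0.259). Cd300lf and Cd300ld overlapped across libraries in this order, as did Cd300ld and Cd300a and, at their edges, Cd300a and Cd300lb. In newborn PMN-MDSC it was Cd300lf (140 ± 12.3, SD, n = 5), Cd300lb (64.4 ± 7.20), Cd300a (39.3 ± 3.48), Cd300ld (33.1 ± 7.90), Cd300e (3.26 ± 1.02) and Cd300lg (1.25 ± 0.449), where Cd300a and Cd300ld overlapped. Cd300ld had thus moved from the second place to the fourth. In adult M-MDSC Cd300a led (102 ± 30.7, SD, n = 3), and Cd300lg (32.5 ± 8.29) could not be set apart from Cd300lb (32.0 ± 11.7), nor Cd300ld (14.6 ± 6.16) from Cd300lf (14.3 ± 8.58), with Cd300e last (4.75 ± 4.32) and overlapping both. In newborn M-MDSC Cd300a (57.6 ± 13.7, SD, n = 5) was followed by Cd300lg (29.9 ± 3.30), Cd300lb (25.5 ± 1.6) and Cd300lf (24.2 ± 3.11), which overlapped, and by Cd300ld (3.37 ± 1.44) and Cd300e (0.284 ± 0.320).

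The summed level of the 6 members was alike in PMN-MDSC of both ages, at 282 ± 47.6 CPM per kb (SD, n = 6) in adults and 281 ± 27.2 (SD, n = 5) in newborns. Its make-up was not. In adults Cd300lf took 31.3 to 35.8% of the sum and Cd300ld 24.5 to 29.9%. In newborns Cd300lf took 48.6 to 50.9% and Cd300ld 9.22 to 14.9%. In M-MDSC the sum was 200 ± 53.5 (SD, n = 3) in adults and 141 ± 12.5 (SD, n = 5) in newborns. Cd300a took 50.6 ± 2.39% of it in adults and 40.5 ± 6.34% in newborns, and Cd300lg 16.5 ± 4.08% and 21.4 ± 3.73%, against 0.21% and 0.446% in adult and newborn PMN-MDSC.

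**Figure D4:**
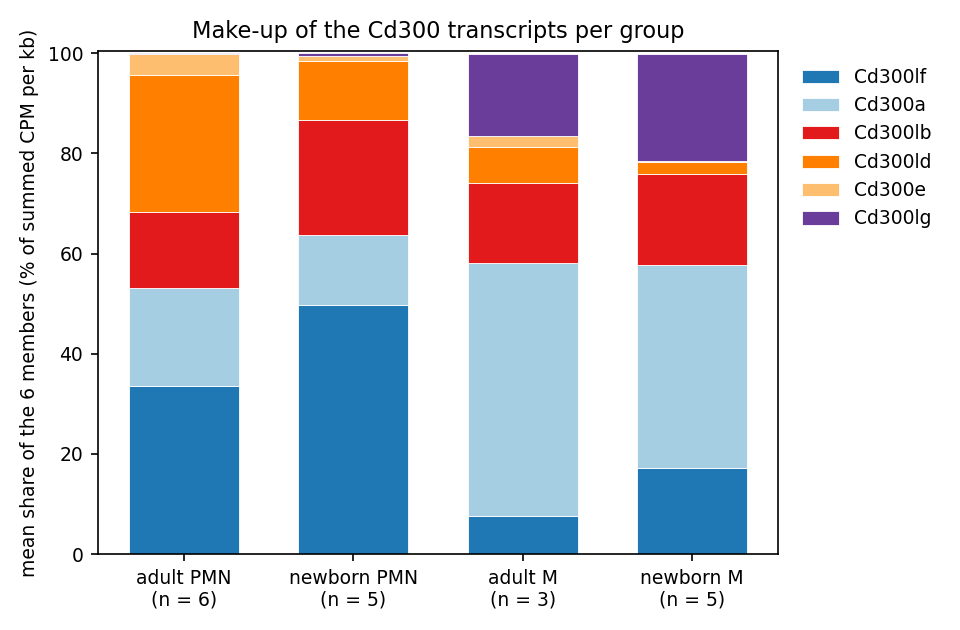
Stacked bars of each member's mean share (% of the summed CPM per kb of the 6 members, y axis) in the 4 groups (x axis). The Cd300lf share grows from 33.6% to 49.8% between adult and newborn PMN-MDSC while that of Cd300ld shrinks from 27.3% to 11.7%, and Cd300a holds the largest share in both M-MDSC groups.

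Set against each other, the inhibitory members (Cd300a and Cd300lf) and the clustered activating members (Cd300lb, Cd300ld and Cd300e) gave a per-kb ratio of 1.10 to 1.19 in adult PMN-MDSC, with a mean of 1.14 ± 0.0376 (SD, n = 6). In newborn PMN-MDSC it was 1.72 to 1.98, with a mean of 1.79 ± 0.108 (SD, n = 5), and no library overlapped. The inhibitory sum was 150 ± 26.3 CPM per kb in adults and 179 ± 14.4 in newborns. In M-MDSC the ratio was 1.83 to 3.57 in adults and 2.35 to 3.73 in newborns, which overlapped. AF251705, a relative in the same cluster, was counted in neither sum. It averaged 58.6 CPM per kb in adult and 33.0 in newborn PMN-MDSC, and 56.7 in adult and 27.1 in newborn M-MDSC. In adult M-MDSC that was above the mean activating sum, and in the other groups it was below. A ratio that counts AF251705 was not calculated, so these ratios describe the named members and not the whole family. A ratio of transcripts is not a ratio of receptors on the surface, which these libraries do not measure. Within the inhibitory pair, Cd300a over Cd300lf was 0.586 ± 0.0611 (SD, n = 6) in adult and 0.282 ± 0.0251 (SD, n = 5) in newborn PMN-MDSC, and 8.94 ± 4.71 (SD, n = 3) in adult and 2.40 ± 0.521 (SD, n = 5) in newborn M-MDSC. The ranges in M-MDSC, 3.52 to 12.0 and 1.49 to 2.71, did not overlap. A ratio within a library does not depend on its scaling.

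**Figure D5:**
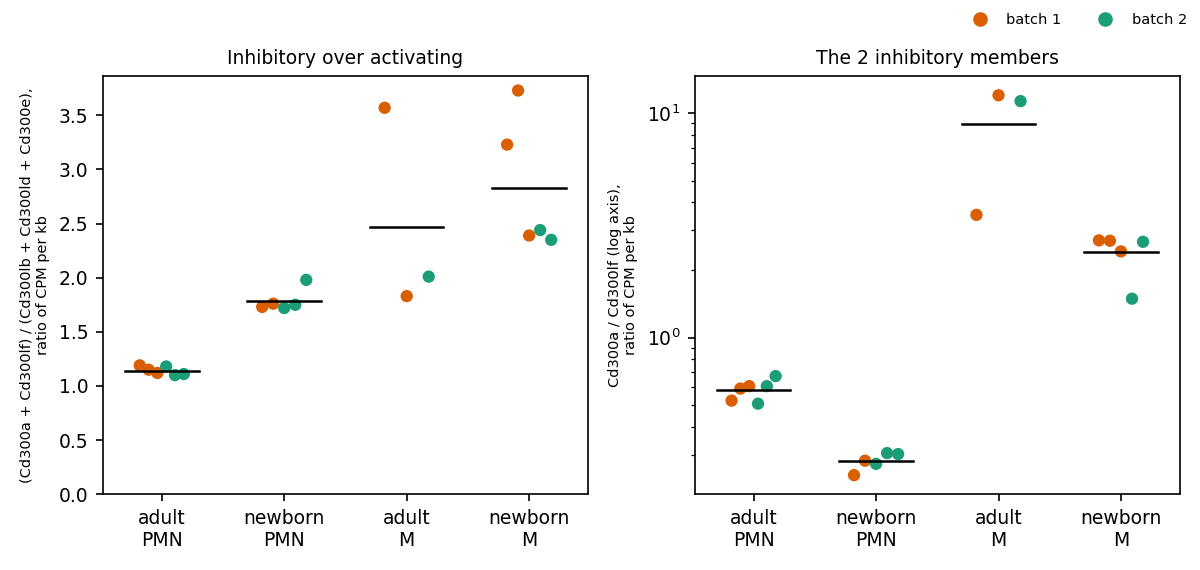
Ratios of CPM per kb in each library (y axes; the right one is logarithmic) for the 4 groups (x axes), with points coloured by batch and lines at the group means. On the left the newborn PMN-MDSC libraries (1.72 to 1.98) lie above the adult ones (1.10 to 1.19), and on the right Cd300a over Cd300lf is below 1 in every PMN-MDSC library and above 1 in every M-MDSC library.

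The relatives of the members in the cluster were sparse or hard to resolve, except AF251705. Per kb of exonic sequence it averaged 58.6 CPM in adult PMN-MDSC and 56.7 CPM in adult M-MDSC, beside 54.9 and 102 CPM for Cd300a. Of its 50-base words 7.16% were shared with another gene. AF251705, listed as Cd300c2 in GENCODE M21, ran from 48.6 through 81.4 to 97.6 CPM in adult PMN-MDSC and was at 36.1, 42.8, 44.2, 50.9 and 36.3 CPM in newborn PMN-MDSC. The highest newborn library passed the lowest adult one. In M-MDSC it had 44.4, 57.7 and 115 CPM in adults and 48.3, 44.3, 30.6, 13.5 and 36.3 CPM in newborns, which overlapped as well. The counts of Cd300lh and Gm11711 were equal in 16 of 19 libraries, 4 of them with 0 counts in both, so only their sum with Gm11710 is described. It averaged 13.8 ± 5.10 CPM (SD, n = 6) in adult and 2.55 ± 1.05 CPM (SD, n = 5) in newborn PMN-MDSC, without overlap, the direction of the neighbouring Cd300ld. In M-MDSC it was 1.65, 5.81 and 11.4 CPM in adults, while the newborn libraries held 2 counts in replicate 1 and 0 in the other 4. Cd300c, Gm11709 and Gm11710 did not pass the expression filter, with at most 3.74 CPM of Cd300c in any library.

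The adaptors and enzymes through which Cd300 receptors signal were looked at as a list of 26 genes, all tested. In newborn PMN-MDSC 14 rose and 5 fell (73.1% called, against 47.7% of all genes), with a median log2 fold change of 0.57 against -0.05 over all genes. Both adaptors of the activating members rose there. Tyrobp went from 615 ± 97.3 CPM (SD, n = 6) to 1086 ± 109 CPM (SD, n = 5), or 0.83 ± 0.24 on the log2 scale (SE; edgeR quasi-likelihood, adjusted p = 0.00848). Fcer1g went from 103 ± 30.7 to 223 ± 43.3 CPM, at 1.12 ± 0.27 (SE; adjusted p = 0.00243 by edgeR). Hcst (DAP10), an adaptor of related receptors, rose by 1.88 ± 0.62 (SE). Of the phosphatases of the inhibitory members, Ptpn11 rose by 1.33 ± 0.11 (SE; adjusted p = 8.2e-09 by edgeR), from 77.98 ± 4.12 to 196 ± 19.7 CPM. Ptpn6 rose by 0.63 ± 0.23 (SE, adjusted p = 0.0317 by edgeR). Its call was lost without adult PMN-MDSC replicate 1 or 32 or newborn PMN-MDSC replicate 3 or 38 (0.53 to 0.59). It was also lost with DESeq2 size factors (0.46), the DESeq2 Wald test (0.46) and upper-quartile scaling (0.39), and in batch 1 alone (0.61). Inpp5d was at -0.15 ± 0.12 (SE; adjusted p = 0.301 by edgeR), with 528 ± 82.4 and 474.5 ± 45.2 CPM. The kinase Syk fell by 0.54 on the log2 scale, from 1602 ± 197 to 1099 ± 107 CPM. The largest falls of the list were those of the adaptor Blnk (-3.13), of the transmembrane adaptor Lat2 (-2.92) and of the ubiquitin ligase Cblb (-2.45), of which Blnk is abundant in B cells. Of 12 B cell markers, 11 were called lower in newborns in each cell type. The part of B cells in the falls of the partners was not tested. Card9, which links activating receptors to NF-kB, rose by 1.61. Without the batch 1 PMN-MDSC libraries the calls of Tyrobp (0.86), Hcst (2.03), Syk (-0.51) and Ptpn6 (0.70) were lost, as was that of Tyrobp with upper-quartile scaling (0.59).

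In M-MDSC the partners gave a different picture with age: 4 rose and 7 fell (42.3% called, against 30.2% of all genes), with a median of -0.14. Tyrobp had 822 ± 405.5 CPM (SD, n = 3) in adults and 855 ± 318 CPM (SD, n = 5) in newborns, at 0.04 ± 0.29 (SE; adjusted p = 0.944 by edgeR), and Fcer1g was at -0.47 ± 0.33 (SE; adjusted p = 0.304). Syk fell by 0.79 and Ptpn11 rose by 0.45, a call lost without adult M-MDSC replicate 1 (0.39) or newborn M-MDSC replicate 3 (0.35) and without the batch 1 PMN-MDSC libraries (0.41; adjusted p = 0.0901), while Blnk (-3.15), Fyn (-1.77), Lat2 (-1.61) and Cblb (-1.14) fell. The age effect was lower in M-MDSC than in PMN-MDSC for 9 of the 26 and higher for 2 (42.3%, against 18.1% of all genes). Between the cell types 8 partners were higher and 3 lower in adult M-MDSC (42.3%, against 29.1% of all genes), and 4 were higher and 13 lower in newborn M-MDSC (65.4%, against 42%). In adults 4 were called when the batch 1 PMN-MDSC libraries were left out, and 4 without adult M-MDSC replicate 28. Tyrobp was not called between cell types at either age (0.42 and -0.36 on the log2 scale), and Inpp5d was at 0.01 and 0.02.

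Ligands and co-receptors of the family formed a list of 10, all tested, of which 2 rose and 5 fell in newborn PMN-MDSC (70% called, against 47.7% of all genes) and 2 rose and 3 fell in newborn M-MDSC (50%, against 30.2%). The 2 that rose were the same in both, S100a8 and S100a9, whose proteins Cd300ld binds. S100a8 went from 2499 ± 163 to 20180 ± 1774 CPM in PMN-MDSC, at 3.03 ± 0.35 (SE; adjusted p = 9.11e-07 by edgeR), and from 92.0 ± 39.8 to 1709 ± 1156 CPM in M-MDSC, at 4.16 ± 0.50 (SE; adjusted p = 5.31e-06). S100a9 rose by 2.84 in PMN-MDSC and by 3.78 in M-MDSC. The list of 12 neutrophil markers, which holds S100a8 and S100a9, was also higher in newborns (a summed 10460 to 11150 CPM in adult and 101800 to 114200 CPM in newborn PMN-MDSC, 669 to 1163 CPM and 3187 to 14600 CPM in M-MDSC), and their part in these rises was not tested. Cd300ld itself was lower in newborns in both cell types, while all 3 were lower in M-MDSC than in PMN-MDSC at both ages, S100a8 by -4.77 in adults and -3.64 in newborns. Il4ra, the receptor chain that Cd300lf can associate with, fell in PMN-MDSC and M-MDSC (adjusted p = 1.97e-06 and 1.3e-05 by edgeR), from 410.5 ± 19.3 to 204 ± 21.5 CPM and from 376 ± 63.4 to 174 ± 32.4 CPM. Tlr4, the lipopolysaccharide receptor with which Cd300lb acts, fell in PMN-MDSC, from 81.2 ± 20.97 to 47.4 ± 5.82 CPM (-0.80 ± 0.24, SE; adjusted p = 0.0109), a call lost at a like size within batch 1 alone (-0.80; adjusted p = 0.113) and without the batch 1 PMN-MDSC libraries (-0.74; adjusted p = 0.189). Its M-MDSC levels were 17.1 ± 5.50 and 18.3 ± 7.12 CPM. Cd14, the co-receptor of Tlr4, was at -0.94 ± 0.32 (SE; adjusted p = 0.0215) in PMN-MDSC and -1.01 ± 0.37 (SE; adjusted p = 0.0488) in M-MDSC. The first call was lost without adult PMN-MDSC replicate 1 or 32 or newborn PMN-MDSC replicate 3 or 39 (-0.80 to -1.05 over all left-out libraries), and the second without any one of 8 libraries (-0.49 to -1.27 over all left-out libraries, with -0.49 without adult M-MDSC replicate 1). Both were lost without the batch 1 PMN-MDSC libraries (-0.96 and -1.06; adjusted p = 0.137 and 0.0784). Tlr9, the DNA sensor, fell in both (-2.86 and -1.32).

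Other families of paired activating and inhibitory receptors made up a list of 41, of which 35 were tested. In newborn PMN-MDSC 13 rose and 12 fell (71.4% called, against 47.7% of all genes) and in newborn M-MDSC 6 rose and 13 fell (54.3%, against 30.2%). Clec12a, an inhibitory C-type lectin, rose by 2.53 and Milr1, the inhibitory allergin, rose by 2.42 in newborn PMN-MDSC, while Cd244, a receptor of the SLAM family, fell by 3.08 and Clec7a, a beta-glucan receptor, fell by 3.17. In newborn M-MDSC Cd244 fell by 2.83 and Cd72, an inhibitory receptor abundant on B cells, fell by 7.72, and Siglece, an inhibitory receptor for sialic acid, rose by 1.75. Pirb, the inhibitory paired immunoglobulin-like receptor, rose by 0.95 in PMN-MDSC and fell by 0.89 in M-MDSC with newborn age. Between cell types 8 of the 35 were higher and 11 lower in adult M-MDSC (54.3%, against 29.1% of all genes), and 5 higher and 17 lower in newborn M-MDSC (62.9%, against 42%). Trem2, a lipid receptor that signals through Tyrobp, stood out as Cd300lg did, higher in M-MDSC by 5.14 in adults and 4.30 in newborns. Cd33 went the way of Cd300lf, at -2.76 and -3.31.

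Lipid recognition and clearance of dying cells, the process in which Cd300a, Cd300lb and Cd300lf take part, was covered by 31 genes, of which 26 were tested. Of these 8 rose and 5 fell in newborn PMN-MDSC (50%, close to the 47.7% of all genes), and 2 rose and 9 fell in newborn M-MDSC (42.3%, against 30.2%), where 7 in all were called without newborn M-MDSC replicate 1. The age effect was lower in M-MDSC than in PMN-MDSC for 13 of the 26 and higher for 0 by edgeR's adjusted p (50%, against 18.1% of all genes). Anxa1, annexin of phosphatidylserine membranes, rose by 3.66 in PMN-MDSC and 1.25 in M-MDSC, and Abca7, a lipid transporter, rose by 1.86 in PMN-MDSC. Abca1, the cholesterol exporter, fell in PMN-MDSC (-1.13) and M-MDSC (-2.16), and in M-MDSC Cd93 fell by 1.83 and Tgm2, the tissue transglutaminase, fell by 3.05.

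The genes with the profile most like that of each member were found by the root mean square difference of log2 CPM, centred on the gene's mean, over the 19 libraries and 9512 genes of at least 10 CPM in a group. Closest to Cd300lb were Pbxip1 (0.165 log2 units), Tk2 (0.188) and Smim14 (0.195), where the median gene was at 0.903. Pbxip1 averaged 284 and 434 CPM in adult and newborn PMN-MDSC and 188 and 154 CPM in adult and newborn M-MDSC, where Cd300lb averaged 122.1, 188, 93.3 and 74.2 CPM. Cd300a was followed most closely by Unc93b1 (0.200), the chaperone of endosomal Toll-like receptors, Plekhb2 (0.212) and Phc2 (0.227), with a median gene at 0.888. Cd300lf had Cd9 (0.420), a tetraspanin, Per2 (0.437), a clock gene, and Rdh12 (0.463), with the median gene at 1.55. Cd300ld had Trp53inp1 (0.515), Slmapos2 (0.534) and the transcription factor Ets1 (0.617), with the median gene at 1.99. Cd300e had Mpzl3 (0.537), Dgki (0.793) and Slc12a2 (0.828), with the median at 2.51, and Cd300lg, the member with the loosest neighbours, had Kifc3 (0.826), Map3k6 (0.883) and Arhgef10l (0.899), with the median at 2.75. Like Cd300lg, Arhgef10l averaged 8.23 and 4.44 CPM in adult and newborn PMN-MDSC and 346 and 262 CPM in M-MDSC.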

How the data were processed

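The 19 RNA-seq libraries were sequenced single-end with 50 bp reads (labels' protocols). What the authors deposited is 1 table of estimated counts, by gene, without normalization; all values were whole numbers. The submitters' processing notes name RSEM 1.2.3, mm10 and DESeq2, the last without a role. The sources used here give neither the aligner nor the annotation release, nor whether counting used strand. Of the identifiers, 37570 of 38887 (96.6%) were in GENCODE M21 (GRCm38, also called mm10).

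Counts were tested in edgeR 4.0.16 (R 4.3.3) with its quasi-likelihood test, all 19 libraries in 1 model of group and batch, TMM scaling and filterByExpr on the groups. This left 12943 genes and 14 residual degrees of freedom. Calls are Benjamini-Hochberg adjusted p under 0.05 over all genes tested. The standard error is the log2 fold change over the root of F. Levels are mean CPM ± SD, and CPM per kb divides by the union of exonic bases. The model was tested on simulated data.

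Members and lists were chosen with earlier results of these data known. The genes named are the members, their relatives and neighbours in the cluster, a fixed set of partners and ligands, up to 4 genes of each list per comparison by adjusted p, and the 3 genes most like each member in pattern. Pirb and Fyn are among them for 1 comparison and are also given for others, as are some values of other listed genes. A planned search of protein sequences was not made. Alternatives were other scalings, DESeq2 1.42.0, no filter, no batch term, single batches, a replicate block, the fit without batch 1 PMN-MDSC libraries and each library left out in turn.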

Additional observations from a re-analysis of the deposited data

Results flagged for a closer look

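In a group of 4 to 10 libraries, a library was marked when its gap to the nearest other, over the range, passed Dixon's 95% value. This was so in 8 of 90 groups of values looked at, and chance marks about 1 in 20. Newborn PMN-MDSC replicate 39 was marked 4 times: it was lowest for Cd300lf (610.4 CPM), for Tyrobp (895.5 CPM) and for the summed level of the 6 members (234 CPM per kb), and highest for the ratio of inhibitory to activating members (1.98). This library was not among those matched with a library of batch 1. Newborn PMN-MDSC replicate 2 had the lowest Cd300lb share (20.8%). In newborn M-MDSC, replicate 77 had the lowest ratio of Cd300a to Cd300lf (1.49), replicate 2 the highest Il4ra (230.3 CPM), and replicate 1 the highest sum of Cd300lh, Gm11710 and Gm11711 (0.929 CPM, or 2 counts, with 0 in the others).

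The age effect (log2, newborn over adult) differed between M-MDSC and PMN-MDSC for 17 of 41 named genes in edgeR's model, against 18.1% of all genes. Some of the 41 were named for their adjusted p in this same difference, and the members were chosen from these levels, so the count supports nothing. For the members Cd300lb and Cd300lg the difference, M-MDSC minus PMN-MDSC, was -0.94 and -1.23. Among signalling partners it was -3.04 for Hcst, -1.59 for Fcer1g, -1.02 for Card9, -0.88 for Ptpn11, 1.31 for Lat2 and 1.32 for Cblb. The Fcer1g difference was lost without the batch 1 PMN-MDSC libraries (-1.70). The Hcst difference (adjusted p = 0.0468) was lost without the batch 1 PMN-MDSC libraries (-3.38; adjusted p = 0.204) and without any one of 15 of the 19 libraries, at -3.51 to -2.11 over all left-out libraries. Other receptors and lipid genes had -3.80 for Cd72, -1.92 for Milr1, -1.83 for Pirb, -1.68 for Clec12a, 3.23 for Clec7a, 1.54 for Tlr9, -2.42 for Anxa1, -1.48 for Abca7 and -1.03 for Abca1.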

How the results depend on the processing

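Of 2030 log2 fold changes of single genes under 29 alternatives, 1892 stayed the same and 0 called values reversed. For genes other than members, the same meant that direction and call were kept, and 108 values lost the call. For members it meant a shift within the spread, whether or not the call was kept, and 30 values moved by more. Member calls were lost most often for Cd300lf with age, in 13 alternatives in PMN-MDSC and 16 in M-MDSC. Of 638 counts, 609 stayed within 1.5 times of the main one. Every member's direction held in 29 of 29 alternatives in each of the 4 comparisons, except Cd300lg with age in M-MDSC (28 of 29, from -0.27 to 0.03). Without the batch 1 PMN-MDSC libraries, genes called were 3740 with age in PMN-MDSC (6171 with them), 2407 between cell types in adults (3772) and 968 for the difference of age effects (2344); members called were 3 with age in PMN-MDSC (6) and 1 for the difference (2), and partners called between cell types in adults were 4 (11). In batch 1 alone, genes called were 3760, 1368 and 408 in these comparisons and 3231 between cell types in newborns (5437), members called were 2 with age in PMN-MDSC, 2 in M-MDSC (4) and 0 for the difference, and partners called were 7 with age in M-MDSC (11), 1 between cell types in adults and 6 in newborns (17). In batch 2 alone 6457 genes were called between cell types in adults and 4254 for the difference, members called were 3 with age in PMN-MDSC, partners 6 with age in M-MDSC and lipid genes 4 with age in M-MDSC (11). With no expression filter 7 partners were called with age in M-MDSC. The causes were not tested; the single-batch fits use fewer libraries.

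Leaving out 1 library gave 3450 to 4340 genes called with age in M-MDSC, 5459 to 7104 in PMN-MDSC, 2250 to 5036 between cell types in adults (lowest without adult M-MDSC replicate 28, highest without replicate 1), 4777 to 6328 in newborns and 2021 to 2905 for the difference of age effects. Partners called between cell types in adults were 4 (without adult M-MDSC replicate 28) to 13 (without replicate 1), lipid genes called with age in M-MDSC 7 to 11 (7 without newborn M-MDSC replicate 1), and members called 3 to 6 with age in PMN-MDSC (3 without adult replicate 2), 2 to 5 in M-MDSC (2 without adult replicate 28) and 1 to 3 for the difference (1 without adult PMN-MDSC replicate 33 or newborn PMN-MDSC replicate 37).

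Whether replicate numbers pair the libraries of batch 1 stayed unclear. Of 12 same-numbered pairs in different groups 6 correlated above 0.1 (-0.161 to 0.401). Adult PMN-MDSC and M-MDSC gave 0.394 for replicate 1 and 0.401 for replicate 3. Newborn PMN-MDSC and M-MDSC gave -0.161 for replicate 2 and 0.0163 for replicate 3. In all, 7 of 10 libraries followed their own number best, every adult one among them. With these numbers as a replicate block, 6059, 3690, 4082, 5572 and 2360 genes were called in the 5 comparisons, in which members called stayed at 6, 4, 4, 6 and 2. Depth limits Cd300e and the Cd300lh copies in newborn M-MDSC, where batch 1 libraries held at most 2 counts.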
